A study of Homo sapiens with 12 samples.

Results

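The human mitochondrial genome gave 37 of the 60675 genes counted in these RNA-seq libraries, chosen as every gene that the counting annotation places on chromosome MT. They comprised 13 protein-coding genes, 2 rRNA genes and 22 tRNA genes. All 12 libraries came from prostate cancer cells kept for 72 h with the synthetic androgen R1881 at 1 nM, in 6 groups of 2 biological replicates. LNCaP, an androgen-dependent line, was given R1881 with vehicle alone (LNCaP R1881) or R1881 with namoline and TCE-5002 together (LNCaP combination). C4-2, its castration-resistant derivative, was given R1881 with vehicle alone, with namoline, with TCE-5002, or with both (C4-2 combination). Namoline inhibits the histone demethylase KDM1A and was used at 50 µM. TCE-5002 inhibits KDM7A. Its dose is uncertain, since the series text lists 100 µM and the methods of the study name less. No untreated group without androgen belongs to this series, and each line is a single established line.

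Mitochondrial DNA is transcribed along most of its length from both strands, and the long precursors are cut at the tRNAs that lie between the longer genes. Most of the released mRNAs and rRNAs carry short poly(A) tails, which lets them enter libraries made by poly(A) capture. How evenly the capture worked across these genes was not measured. The 13 coding genes specify subunits of respiratory chain complexes I, III and IV and of the ATP synthase (complex V), while the remaining subunits of these complexes come from nuclear genes. Every other coding gene is read from the heavy strand, and MT-ND6 alone from the light strand. Counting here used no strand information, so transcripts of opposite strands over the same gene cannot be told apart. In bulk RNA, fewer mitochondrial genomes per cell and less RNA per genome cannot be told apart either.

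Library totals ran from 14791602 to 20690819 counts. The alignment named in the header of LNCaP combination replicate 1 is that of a library with namoline and without TCE-5002, which goes against its label, so the counts of calls and the main fold changes of that group are also given without it, and its other values by library. The libraries labelled LNCaP went against the C4-2 libraries in 2 marker lists: 8 mesenchymal genes summed to 798 to 999.9 CPM in them against 60.6 to 94.3 CPM in C4-2, and 12 prostate luminal genes to 516 to 1208 CPM against 2634 to 7754 CPM. CPM is the count of a gene per 1000000 counts of its library. Vimentin (VIM) stood at 739 ± 54.1 CPM (SD, n = 2) in LNCaP R1881 and at 2.56 ± 0.278 CPM in C4-2 R1881, while CDH2 and ZEB2 had 0 counts in C4-2 R1881. The mesenchymal sum rested mostly on VIM. Within the lists COL1A1 went the other way, at 4.80 CPM in LNCaP R1881 and 52.5 CPM in C4-2 R1881, as did KLK3 among the luminal genes, at 406 and 227 CPM. Of the 7 mesenchymal genes tested 6 were lower and 1 was higher in C4-2, and of the 12 luminal genes 11 were higher and 1 was lower. These groups are therefore called the libraries labelled LNCaP, and the words LNCaP and line below refer to the labels alone. Replicates differed by more than counting noise in all 6 groups, with a chi-square per gene of 3.61 to 27.9, and the highest value belonged to C4-2 TCE-5002.

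Neighbouring mitochondrial genes touch or overlap, and a fragment that touched 2 annotated genes was not counted. The overlaps that matter for the coding genes are shown in capitals, as the last bases of MT-ATP8 and of MT-ND4L with the start of the next gene (chromosome MT of GRCh38, plus strand, read from GENCODE transcripts).
MT-ATP8 end, MT:8507-8572: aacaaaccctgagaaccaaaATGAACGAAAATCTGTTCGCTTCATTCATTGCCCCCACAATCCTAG
MT-ND4L end, MT:10740-10766: cataacctaaacctactccaATGCTAA
The MT-ATP8 overlap with MT-ATP6 spans 46 bases of a gene of 207 bases, and that of MT-ND4L with MT-ND4 spans 7 bases of 297. Counts of MT-ATP8, MT-ATP6, MT-ND4L and MT-ND4 therefore leave out the fragments that cross these junctions. The ratio of MT-ATP8 to MT-ATP6 counts stayed between 0.210 and 0.282 in the 12 libraries, and that of MT-ND4L to MT-ND4 between 0.104 and 0.160, with both lowest values in C4-2 TCE-5002 replicate 2.

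The tRNA genes are 59 to 75 bases long, and 4 of those whose counts moved most are shown, with their anticodons in capitals.
MT-TP (tRNA for proline), MT:15956-16023, minus strand: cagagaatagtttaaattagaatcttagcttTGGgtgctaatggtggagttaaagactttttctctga
MT-TM (methionine), MT:4402-4469, plus strand: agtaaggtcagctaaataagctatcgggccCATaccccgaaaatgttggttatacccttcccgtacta
MT-TV (valine), MT:1602-1670, plus strand: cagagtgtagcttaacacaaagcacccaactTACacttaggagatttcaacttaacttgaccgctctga
MT-TK (lysine), MT:8295-8364, plus strand: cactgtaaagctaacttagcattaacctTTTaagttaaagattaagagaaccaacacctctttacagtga
MT-TV abuts an rRNA gene on each side, and MT-TM has 1 base between it and MT-TQ and abuts MT-ND2, so a counted fragment of either lay almost wholly within the tRNA. MT-TP is the last gene of the annotation before the control region, where the files annotate no gene.

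Mitochondrial transcripts took 3.27-fold more of the library in C4-2 R1881 than in LNCaP R1881. In LNCaP R1881 the coding genes held 1.84% and 1.41% of all counts and the rRNAs 0.581% and 0.501%. In C4-2 R1881 the coding genes held 3.95% and 4.76% and the rRNAs 2.58% and 2.90%, so neither share overlapped between the lines. Namoline gave the highest coding shares, 5.29% and 6.27%, and TCE-5002 the lowest within C4-2, 3.57% and 3.66%. The C4-2 combination lay between, at 4.03% and 4.46%, within the range of C4-2 R1881. The rRNA shares were 3.51% and 3.87% with namoline, 2.00% and 1.97% with TCE-5002 and 2.80% and 3.01% with the combination. In the LNCaP combination the coding share was 1.29% in both libraries, below both R1881 libraries, while the rRNA share was 0.813% and 0.840%, above both. The tRNA genes together held 0.00453% to 0.0140% of the counts. Shares were not tested, because 2 against 2 libraries cannot go below p = 0.333 in an exact two-sided permutation test. The same limit applies wherever 2 groups are said not to overlap. Such statements describe the libraries, and the share of all genes without overlap is not given here.

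**Figure D1:**
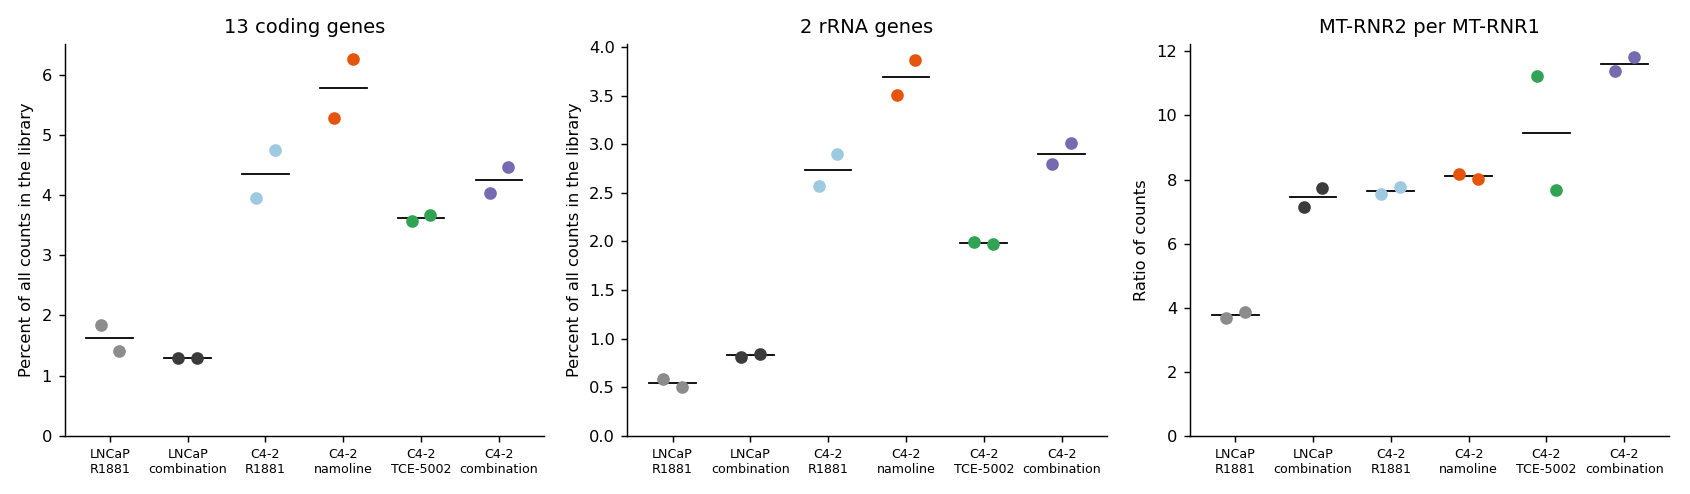
Share of all counts of a library (percent) from the 13 mitochondrial coding genes and the 2 rRNA genes, and the ratio of MT-RNR2 to MT-RNR1 counts, by group. Points are libraries and lines are means of 2, and the C4-2 groups lie above the libraries labelled LNCaP in both shares.

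The 15 coding and rRNA genes ranked high among all genes. By mean CPM the large subunit rRNA MT-RNR2 ranked first in all 4 C4-2 groups and MT-CO1 ranked second, while in LNCaP R1881 MT-RNR2 ranked 3 and MT-CO1 ranked 10. The lowest ranks in C4-2 R1881 were those of MT-ND3, at 193, and of MT-ND6, at 158. Per length, MT-CO1 had the highest coding level in C4-2 R1881, at 6633 CPM per kb, followed by MT-CO3 at 5955 CPM per kb and MT-ATP6 at 5087 CPM per kb. MT-ND6 was lowest at 1182 CPM per kb. In LNCaP R1881 the order per length was flatter: MT-ND4, MT-ND2, MT-CO3 and MT-CO1 lay between 1678 and 1775 CPM per kb, and MT-ND6 was again lowest at 654 CPM per kb.

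The first comparison set C4-2 R1881 against the R1881 libraries labelled LNCaP. All 15 coding and rRNA genes were higher in C4-2 at an adjusted p under 0.05, and 11 of them at least 2-fold. Of all 19763 genes tested, 37.8% were higher, 24.3% were higher at least 2-fold and 39.0% were lower. The coding genes had a median log2 fold change of 1.54, against 0.00 over all genes tested. The 15 calls at an adjusted p under 0.05 held under every other setting, and all 15 genes stayed higher with any library left out. The 2-fold count did not hold: MT-ND5 fell to 0.99 under another setting and to 0.87 with 1 library left out. The same comparison called 76.8% of all genes in either direction.

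MT-RNR2 differed most of the 15 genes. MT-RNR2 (chromosome MT, 1671 to 3229), the RNA of the large mitochondrial ribosomal subunit, stood at 4566 and 3978 CPM in LNCaP R1881 and at 22745 and 25655 CPM in C4-2 R1881, a log2 difference of 2.58 (SE 0.11, adjusted p = 1.86e-16). MT-RNR1 (648 to 1601), the RNA of the small subunit, stood at 1239 and 1033 CPM against 3019 and 3309.8 CPM, a log2 difference of 1.55 (SE 0.09, adjusted p = 2.82e-13). The libraries of the lines did not overlap for either rRNA. MT-RNR2 counts per MT-RNR1 count were 3.68 and 3.85 in LNCaP R1881 and 7.54 and 7.75 in C4-2 R1881.

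Among the coding genes the size of the difference varied, also within complex I. The 3 genes of complex IV, cytochrome c oxidase, differed by 2.06 (MT-CO1, 5904 to 7445), 1.79 (MT-CO2, 7586 to 8269) and 1.87 (MT-CO3, 9207 to 9990) on the log2 scale. Both complex V genes were close to these, with MT-ATP6 (8527 to 9207) at 1.68 and MT-ATP8 (8366 to 8572) at 1.75. MT-CYB (14747 to 15887), the cytochrome b of complex III, differed by 1.31. The 7 genes of complex I, NADH dehydrogenase, ran from 0.59 for MT-ND3 (10059 to 10404) and 0.66 for MT-ND2 (4470 to 5511) through 0.93 for MT-ND6 (14149 to 14673), 0.99 for MT-ND1 (3307 to 4262) and 1.07 for MT-ND5 (12337 to 14148) to 1.54 for MT-ND4L (10470 to 10766) and 1.54 for MT-ND4 (10760 to 12137). The composition of the coding counts differed accordingly: MT-ND2 held 11.1% to 11.5% of them in LNCaP R1881 and 6.31% to 6.33% in C4-2 R1881, whereas MT-CO1 held 15.8% to 16.1% and 23.4% to 23.6%.

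Namoline in C4-2 raised most mitochondrial transcripts by less than 2-fold. At an adjusted p under 0.05, 9 of 13 coding genes and both rRNAs were higher and 0 were lower, where 35.0% of all 17702 genes tested were called, 18.7% higher and 16.3% lower. The median log2 fold change of the coding genes was 0.57, and that of all genes tested was -0.00. None of the 15 reached 2-fold, which 5.17% of all genes did upwards. The count of 11 fell to 1 without C4-2 R1881 replicate 1 and to 5 without namoline replicate 2, and MT-CO1 was the gene called whichever library was left out.

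MT-CO1, the catalytic subunit of complex IV, stood at 9234 and 11221 CPM with R1881 and at 14014 and 16330.1 CPM with namoline. Both namoline libraries lay above both R1881 libraries, with a log2 fold change of 0.72 (SE 0.14, adjusted p = 0.00134). MT-CO2 rose by 0.63 (SE 0.15, adjusted p = 0.00461) and MT-CO3 by 0.63 (SE 0.14, adjusted p = 0.00246), so all 3 genes of this complex were called. Both complex V genes rose as well, MT-ATP6 by 0.56 (adjusted p = 0.00686) and MT-ATP8 by 0.55 (adjusted p = 0.0098). Of the complex I genes, 4 rose by 0.57 to 0.63, namely MT-ND4, MT-ND4L, MT-ND5 and the light-strand gene MT-ND6.

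The other complex I genes and MT-CYB were not called with namoline. MT-ND2 stood at 2499 and 3003 CPM with R1881 and at 2416 and 2860.1 CPM with namoline, which overlap, and its log2 fold change was 0.09 (SE 0.13, adjusted p = 0.623). MT-ND3 was at 0.11 (adjusted p = 0.624), MT-ND1 at 0.30 (adjusted p = 0.118) and MT-CYB at 0.36 (adjusted p = 0.0613). As shares of the coding counts, MT-ND2 went from 6.31% to 6.33% with R1881 to 4.56% to 4.57% with namoline, and MT-CO1 from 23.4% to 23.6% to 26.1% to 26.5%. MT-RNR1 rose by 0.51 (SE 0.14, adjusted p = 0.012) and MT-RNR2 by 0.59 (SE 0.14, adjusted p = 0.00389). With library totals in place of TMM scaling, the change of MT-ND2 was -0.06.

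TCE-5002 in C4-2 went with lower levels of part of the set. At an adjusted p under 0.05, 5 of 13 coding genes and MT-RNR1 were lower and 0 of the 15 were higher, where 36.5% of all genes tested were called, 16.7% lower and 19.9% higher. None fell 2-fold, which 6.80% of all genes did. The median over the coding genes was -0.19, against -0.00 over all genes. The count of 6 fell to 2 without C4-2 R1881 replicate 2, to MT-RNR1 and MT-ND4L.

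MT-RNR1 stood at 3019 and 3309.8 CPM with R1881 and at 1633 and 2274 CPM with TCE-5002, a log2 fold change of -0.60 (SE 0.14, adjusted p = 0.00437). Its TCE-5002 replicates were farther apart than those of any other group. MT-RNR2 went from 22745 and 25655 CPM to 18343 and 17432 CPM and was not called (-0.34, SE 0.14, adjusted p = 0.0662). The MT-RNR2 to MT-RNR1 ratio was accordingly 11.2 in TCE-5002 replicate 1 and 7.66 in replicate 2.

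The coding genes called with TCE-5002 were 4 of complex I and 1 of complex V. MT-ND5 stood at 2541 and 2968 CPM with R1881 and at 1589.9 and 1854 CPM with TCE-5002, with no overlap (-0.58, SE 0.13, adjusted p = 0.00252). MT-ND4L went from 959 and 1106 CPM to 655 and 613 CPM (-0.61, SE 0.13, adjusted p = 0.00269). MT-ND1 changed by -0.47 (adjusted p = 0.0177), MT-ATP8 by -0.40 (adjusted p = 0.0451) and MT-ND2 by -0.36 (adjusted p = 0.0494). MT-CO1 was at 9755 and 9484 CPM, inside the range of C4-2 R1881, with a change of 0.01 (SE 0.14, adjusted p = 0.974). MT-CO2 (0.09), MT-CO3 (-0.12), MT-ND3 (0.11), MT-ND4 (-0.19), MT-ND6 (0.01), MT-CYB (-0.16) and MT-ATP6 (-0.28) were not called either. After correction for transcript GC content, an alternative chosen after seeing the data, 4 of the 15 genes were called, and the replicate difference of this group followed GC content most among the groups (Spearman rho -0.78 across 10415 genes). Its part in these values was not tested.

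The combination in C4-2 left most of the set without a call. MT-CO1 rose and MT-ND2 fell, and the other 11 coding genes and both rRNAs were not called, where 50.3% of all genes tested were called, 24.8% higher and 25.6% lower. MT-CO1 went from 9234 and 11221 CPM to 12871 and 14154 CPM (0.53, SE 0.14, adjusted p = 0.00633). MT-ND2 went from 2499 and 3003 CPM to 1558 and 1752 CPM (-0.60, SE 0.14, adjusted p = 0.00202). Neither pair of groups overlapped. With each library left out in turn MT-CO1 ran from 0.40 to 0.68 and MT-ND2 from -0.73 to -0.47, and MT-ND2 alone kept its call throughout. Among the genes not called, MT-ND4 was at 0.34 (adjusted p = 0.0631), MT-RNR1 at -0.33 (adjusted p = 0.0695), MT-CYB at -0.31 (adjusted p = 0.0824) and MT-RNR2 at 0.28 (adjusted p = 0.107). MT-ND3 (-0.29), MT-ND1 (-0.27), MT-CO3 (-0.25), MT-ND4L (0.18), MT-CO2 (-0.13), MT-ATP8 (-0.12), MT-ATP6 (-0.03), MT-ND6 (0.01) and MT-ND5 (-0.00) were not called either. The count of 2 was 9 in a fit of the 4 libraries compared, 7 with library totals and 6 with the replicate number as a block, and 1 without C4-2 R1881 replicate 1 or without combination replicate 2. MT-RNR2 to MT-RNR1 ratios were 11.4 and 11.8, above the 7.54 and 7.75 of C4-2 R1881.

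**Figure D2:**
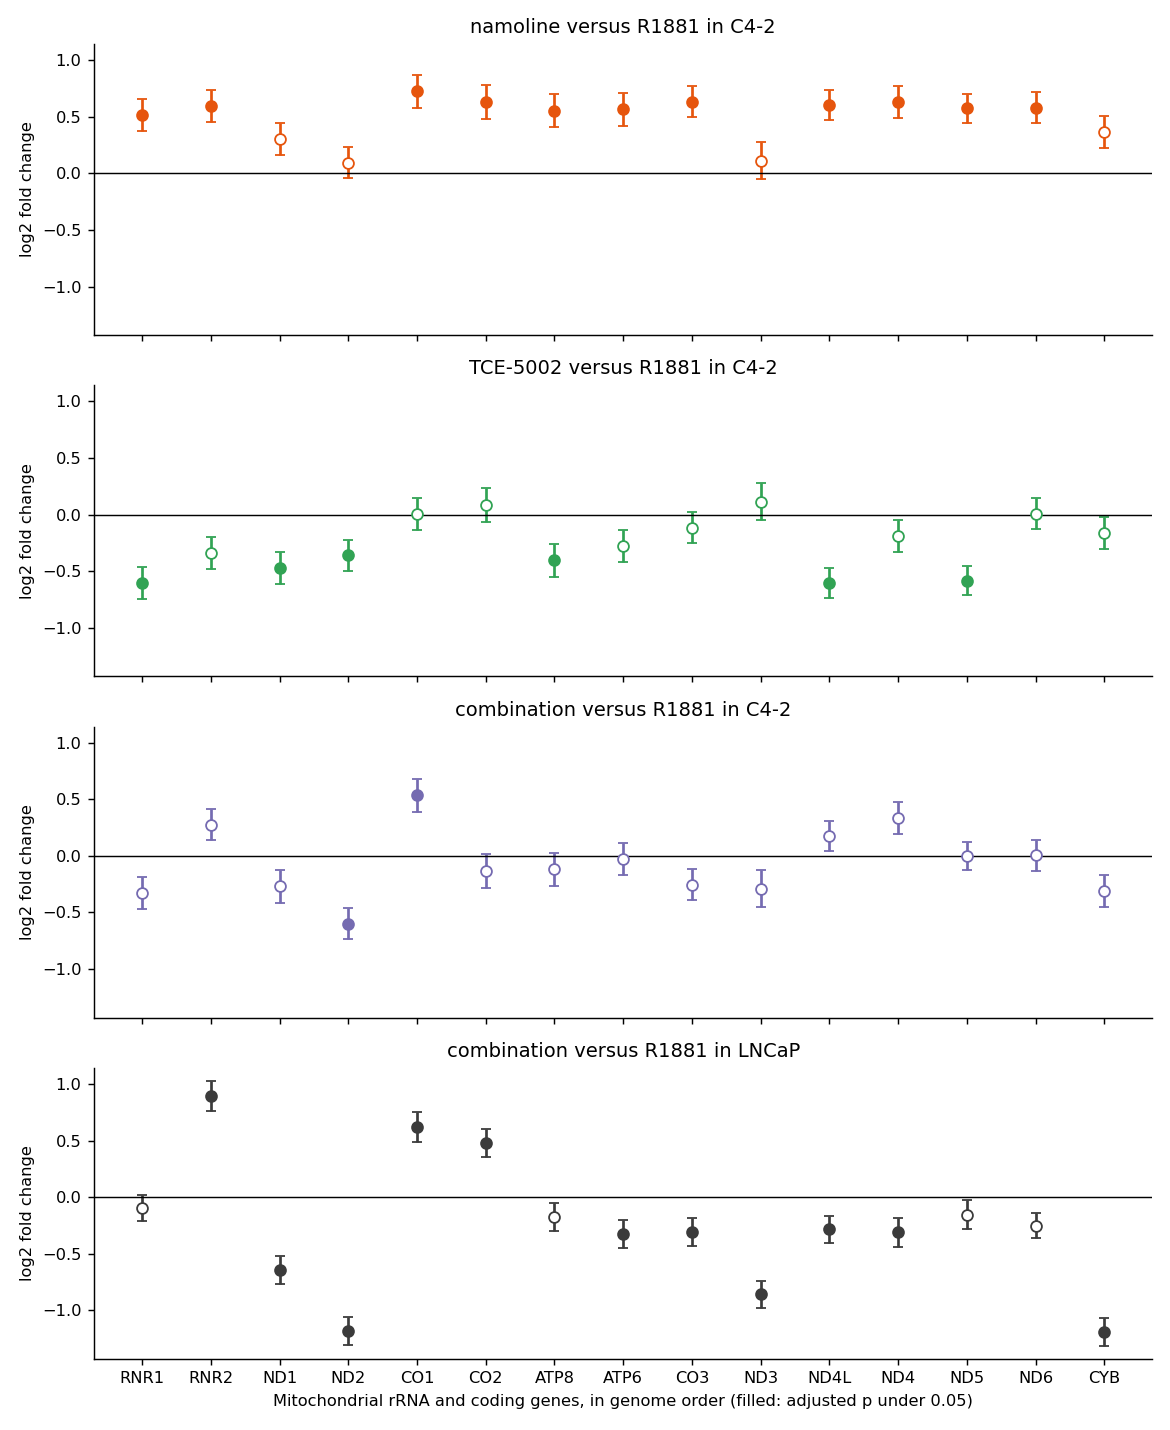
Log2 fold change against R1881 (vertical axis, with standard error) of the 2 rRNA and 13 coding genes in genome order, for the 4 comparisons. Filled points passed an adjusted p of 0.05. Namoline points lie above 0, and the combination panels hold points on both sides.

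The difference of the combination from the sum of both single treatments was tested as an interaction on the log2 scale. At an adjusted p under 0.05, 4 of 13 coding genes had a negative interaction, none a positive one, and neither rRNA was called, where 53.5% of all genes were called, 27.9% negative and 25.6% positive. MT-CO2 stood at 2764 and 3244 CPM with R1881, 3662 and 4684 with namoline, 3110.4 and 2849 with TCE-5002 and 2322 and 2680.1 with both. The combination libraries were below all other C4-2 libraries for this gene, and the interaction was -0.85 (SE 0.21, adjusted p = 0.00353). MT-CO3 ran in the same order, at 4294 and 5043, 5922 and 7074, 4117 and 3938, and 3437 and 3706 CPM, with an interaction of -0.77 (SE 0.19, adjusted p = 0.00362). MT-ND6 (-0.58, adjusted p = 0.0199) and MT-CYB (-0.51, adjusted p = 0.0451) completed the count. MT-CO1, the third gene of complex IV, had an interaction of -0.20 (SE 0.20, adjusted p = 0.43). The count of 4 fell to 2, MT-CO2 and MT-CO3, without C4-2 R1881 replicate 1, without namoline replicate 2 or without combination replicate 1, rose to 7 with the GC correction and was 2 with library totals.

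In the libraries labelled LNCaP the combination changed the balance among the mitochondrial genes. At an adjusted p under 0.05, 2 of 13 coding genes and MT-RNR2 were higher and 8 coding genes lower, where 56.2% of all 17565 genes tested were called, 28.0% higher and 28.2% lower. MT-CYB and MT-ND2 fell at least 2-fold, which 11.3% of all genes did. The median of the coding genes was -0.30, against -0.00 over all genes. Without combination replicate 1, whose header names namoline alone, 11 of the 15 genes were called, as with it. The count fell to 7 without R1881 replicate 1, and MT-RNR2, MT-ND1, MT-ND2, MT-CO1, MT-ND3 and MT-CYB were called whichever library was left out.

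MT-CYB stood at 1853 and 1426 CPM with R1881 and at 677 and 645 CPM with the combination, a log2 fold change of -1.19 (SE 0.12, adjusted p = 8.33e-10). MT-ND2 went from 2043 and 1612 CPM to 782 and 699 CPM (-1.18, SE 0.12, adjusted p = 1.02e-09). Without combination replicate 1 these changes were -1.21 for MT-CYB and -1.26 for MT-ND2. MT-ND3 went from 449 and 323 CPM to 196 and 194 CPM (-0.86, SE 0.12, adjusted p = 1.74e-07), and MT-ND1 from 1738 and 1383 CPM to 963 and 876 CPM (-0.64, SE 0.12, adjusted p = 3.43e-05). In none of these 4 genes did the groups overlap. MT-ATP6, MT-CO3, MT-ND4 and MT-ND4L fell by 0.28 to 0.33, with adjusted p from 0.0222 to 0.0445. MT-ATP8 (-0.18), MT-ND5 (-0.15) and MT-ND6 (-0.25) were not called.

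The genes that rose were MT-RNR2, MT-CO1 and MT-CO2. MT-RNR2 went from 4566 and 3978 CPM to 7129.8 and 7440.0 CPM (0.89, SE 0.13, adjusted p = 1.05e-06), while MT-RNR1 went from 1239 and 1033 CPM to 998 and 961 CPM (-0.09, SE 0.12, adjusted p = 0.515). The ratio of the 2 rRNAs went from 3.68 and 3.85 to 7.15 and 7.75. MT-CO1 went from 2912 and 2264 CPM to 3612 and 3699 CPM (0.62, SE 0.13, adjusted p = 0.000149), and MT-CO2 from 1067 and 769 CPM to 1192 and 1155 CPM (0.48, SE 0.13, adjusted p = 0.00158). Without combination replicate 1 the changes were 0.93 for MT-RNR2, 0.65 for MT-CO1 and 0.46 for MT-CO2. MT-CO1 thereby went from 15.8% to 16.1% of the coding counts to 27.9% to 28.7%, and MT-CYB from 10.1% in both libraries to 5.01% to 5.23%. In C4-2 the combination moved the MT-CO1 share from 23.4% to 23.6% up to 31.7% to 31.9% and the MT-CYB share from 8.72% to 8.99% down to 6.56% to 6.78%.

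**Figure D3:**
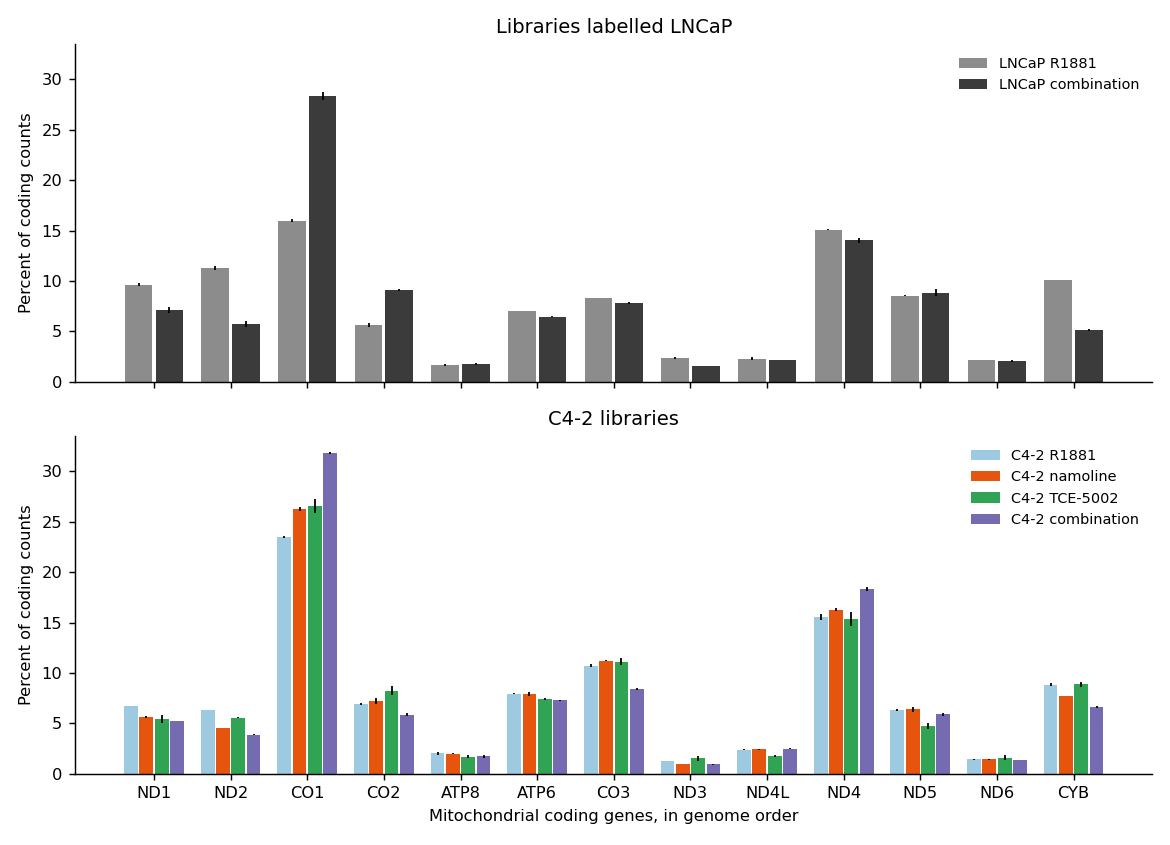
Share of each coding gene in the counts of all 13 coding genes (percent), by group, as bars for the mean of 2 libraries with a line from the lower to the higher library. MT-CO1 takes 15.8% to 16.1% in LNCaP R1881 and 27.9% to 28.7% in the LNCaP combination, and 31.7% to 31.9% in the C4-2 combination.

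The effect of the combination differed between the lines for part of the set. At an adjusted p under 0.05, the difference (effect in C4-2 minus effect in LNCaP) was positive for 5 of 13 coding genes and negative for MT-CO2 and MT-RNR2, where 47.6% of all 19763 genes tested were called, 21.7% positive and 25.9% negative. The median of all genes in this fit was -0.10. MT-CYB differed by 0.83 (SE 0.16, adjusted p = 0.000138), MT-ND4 by 0.59 (adjusted p = 0.00338), MT-ND2 by 0.53 (adjusted p = 0.0057), MT-ND3 by 0.52 (adjusted p = 0.0111) and MT-ND4L by 0.41 (adjusted p = 0.0482). MT-RNR2 differed by -0.67 (SE 0.14, adjusted p = 0.000401) and MT-CO2 by -0.66 (SE 0.16, adjusted p = 0.00166). For MT-CO1, which was called higher in both lines with all libraries fitted, the difference was -0.14 (SE 0.16, adjusted p = 0.5), with an opposite sign after the GC correction. The count of 7 genes fell to 4 without C4-2 R1881 replicate 1, rose to 11 without LNCaP R1881 replicate 2 and was 7 without LNCaP combination replicate 1.

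The tRNA genes gave few counts. Of the 22, 13 passed the filter on low counts in the C4-2 fit, 12 in the LNCaP fit and 17 in the fit of both lines, and a tRNA that passed through a single group with counts had to differ there. MT-TI, MT-TW, MT-TN and MT-TR passed in no fit, and MT-TN had 1 count in all libraries. MT-TP, a light-strand tRNA, was the most counted.

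MT-TP rose in all 4 comparisons against R1881. In C4-2 it stood at 19.96 and 23.4 CPM with R1881, 70.7 and 85.2 with namoline, 37.7 and 32.9 with TCE-5002 and 44.3 and 47.0 with the combination. No treated library of C4-2 overlapped with R1881, and namoline was the highest. The log2 fold changes were 2.01 (SE 0.15, adjusted p = 2.04e-07), 0.81 (SE 0.15, adjusted p = 0.000726) and 1.21 (SE 0.15, adjusted p = 1.21e-05), and the interaction of the inhibitors was -1.60 (SE 0.20, adjusted p = 1.17e-05). Between the 2 LNCaP groups it went from 8.41 and 8.07 CPM to 24.9 and 29.3 CPM (1.84, SE 0.15, adjusted p = 1.04e-11), and without combination replicate 1 the change was 1.96. MT-TP kept its call and direction in these 4 comparisons under every other setting and with any library left out.

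Another set of tRNA genes was highest in LNCaP R1881. MT-TM stood at 19.2 and 8.99 CPM there and at 0.104 to 0.690 CPM in the other 10 libraries, with 376 and 186 counts against 2 to 14. It passed the filter through LNCaP R1881 alone, so its log2 differences are descriptions without a test, -5.96 for the LNCaP combination and -4.53 for C4-2 R1881, each against LNCaP R1881. MT-TV stood at 6.17 and 4.88 CPM, against 0.379 and 0.312 CPM with the LNCaP combination and 1.20 to 3.09 CPM in C4-2. In the LNCaP fit it too passed the filter through R1881 alone, and its log2 difference there was -3.86. MT-TK had 64 and 33 counts in LNCaP R1881, 0 in both LNCaP combination libraries and 1 to 5 in each C4-2 library. Taking 3 counts per library as the upper limit that a count of 0 allows, MT-TK was at least 14.1-fold higher in LNCaP R1881 than in the combination. MT-TS1 had 30 and 11 counts against 0 and 2, and MT-TD 33 and 23 against 4 and 3. In C4-2 MT-TS1 reached 0.473 CPM, close to the lower of its LNCaP R1881 libraries (1.53 and 0.532 CPM). MT-TD reached 0.612 CPM in C4-2, beside 1.68 and 1.11 CPM in LNCaP R1881. The 2 LNCaP groups did not overlap in any of these 5 tRNAs, but they were gathered for being high in LNCaP R1881. This is therefore a description and no test. Without combination replicate 1 the change of MT-TM was -6.86.

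**Figure D4:**
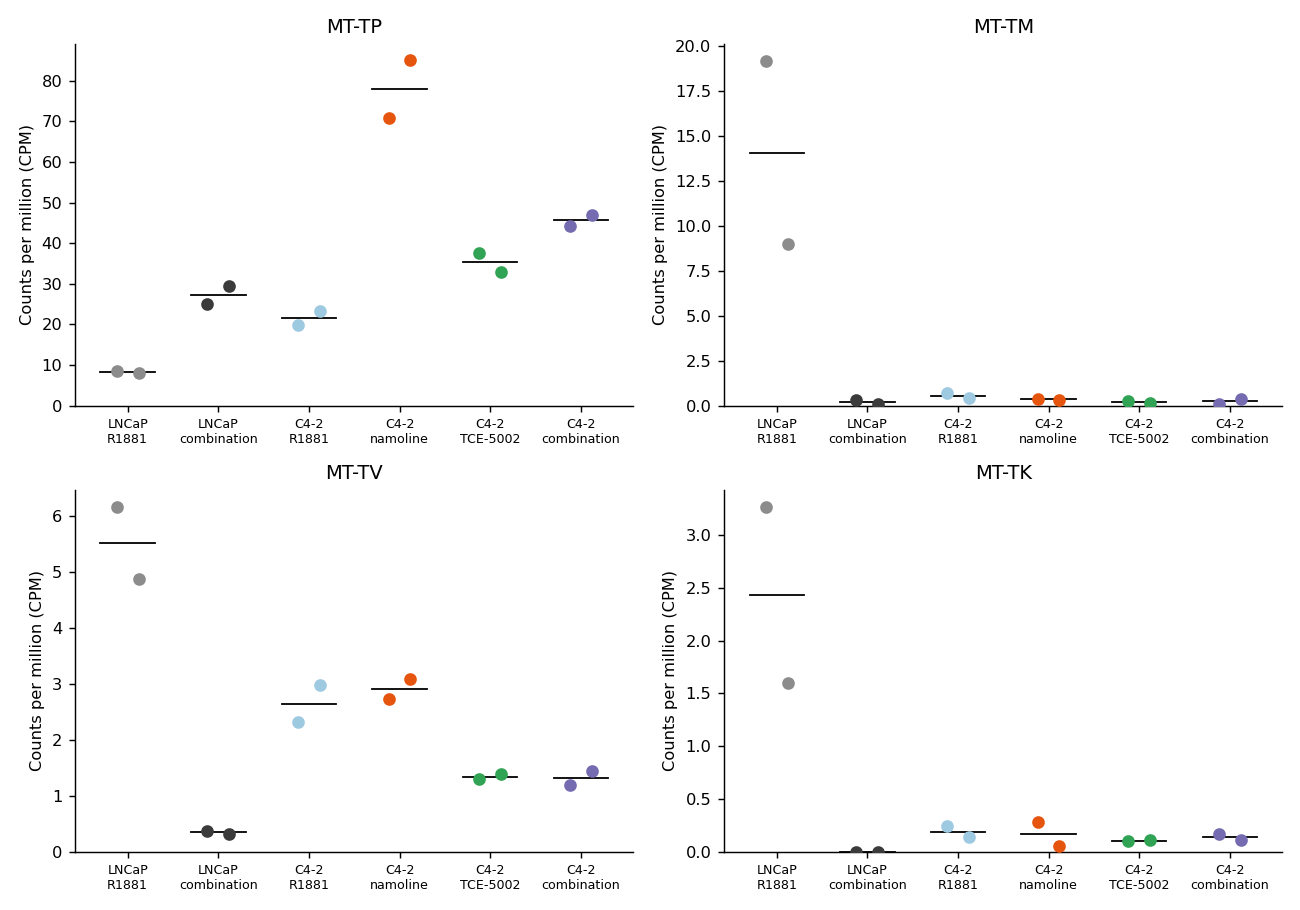
Level of 4 mitochondrial tRNA genes (CPM) by group, with points for libraries and lines for means of 2. MT-TP is highest with namoline in C4-2, and MT-TM, MT-TV and MT-TK are highest in LNCaP R1881.

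The calls of the remaining tRNA genes rested on low counts, and many were lost with 1 library left out. With TCE-5002, 6 of the 13 tested were lower and MT-TP alone higher, where 16.7% of all genes tested were lower: MT-TL1 changed by -1.10, MT-TL2 by -1.05, MT-TS2 by -1.13, MT-TE by -1.13, MT-TV by -0.87 and MT-TQ, with 3 to 29 counts in these libraries, by -1.86, with adjusted p from 0.00565 to 0.0345. Of these 6, MT-TL1 alone was called whichever library was left out, and the adjusted p of the others then reached 0.0881 to 0.266. With the C4-2 combination MT-TH, MT-TS2, MT-TL2, MT-TE and MT-TV were lower by 0.86 to 1.96 on the log2 scale, 5 of 13 where 25.6% of all genes tested were lower. Each of these 5 calls was lost with some library left out, where the adjusted p reached 0.0652 to 0.176. Namoline changed, besides MT-TP, only MT-TC among the 13 tested (0.70, adjusted p = 0.0291), where 18.7% of all genes tested were higher and 16.3% lower. The call of MT-TC was lost with some library left out, where its change ran from 0.60 to 0.80. With the LNCaP combination 3 of the 12 tested were higher, namely MT-TP, MT-TL1 (0.58) and MT-TC (0.73), and 5 were lower. Over all genes tested, 28.0% were higher and 28.2% lower. The calls of MT-TL1 and MT-TC were lost likewise, where the changes ran from 0.31 to 0.90 and from 0.52 to 0.95. Against LNCaP R1881, 10 of the 17 tRNAs tested were higher in C4-2 R1881 and 4 lower. Over all genes tested, 37.8% were higher and 39.0% lower. Those higher were MT-TL2, MT-TS2, MT-TH, MT-TE, MT-TQ, MT-TG, MT-TL1, MT-TY and MT-TC, by 0.67 to 3.08, and MT-TP, by 1.46. The calls of MT-TQ, MT-TL1, MT-TY and MT-TC among these were lost with 1 library left out (adjusted p up to 0.405). MT-TQ, with 9 and 9 counts in LNCaP R1881 and 29 and 11 in C4-2 R1881, passed the filter through C4-2 libraries alone. Its difference between the lines, and that of any other tRNA that passed through C4-2 alone, is a description without a test. MT-TA, MT-TT and MT-TF were called in no comparison.

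Other classes of transcript were measured beside the mitochondrial ones. The 4603 nuclear genes of at most 100 bases summed to 161 and 216 CPM in LNCaP R1881, 124 and 131 CPM in the LNCaP combination and 138 to 365 CPM in C4-2. The 8 genes for RNAs without poly(A) tails that were found summed to 19.4 to 292 CPM, with 253 against 85.7 CPM between the C4-2 R1881 replicates and 36.98 against 210 CPM between the C4-2 combination replicates. MALAT1 and NEAT1, which stay in the nucleus, summed to 957 to 1523 CPM in the libraries labelled LNCaP, 3874 and 4642 CPM in C4-2 R1881, 2362 and 3075 CPM with namoline, 2479 and 3688 CPM with TCE-5002 and 6038 and 6621 CPM with the C4-2 combination. The 23 nuclear copies of mitochondrial genes summed to 127 to 224 CPM in the libraries labelled LNCaP and 362 to 666 CPM in C4-2. Fragments matching several places were not counted, so a mitochondrial gene with a near-identical nuclear copy (MT-ND2, MT-CO1 and MT-ATP6 among them) may be undercounted. MTCO1P12 and MTND2P28, copies of MT-CO1 and MT-ND2, changed by 0.56 and -0.69 with the C4-2 combination and by 0.77 and -0.68 with the LNCaP combination, and MTCO1P12 by 0.82 with namoline. MTRNR2L3, a copy of MT-RNR2, had 49 counts in the C4-2 R1881 libraries together, 1 with namoline and 1 with TCE-5002. NEAT1 changed by -0.64 with namoline, MALAT1 by 0.84 with the C4-2 combination and 0.42 with the LNCaP combination, and RN7SL2 by -1.29 with the LNCaP combination. The part of these transcripts in the mitochondrial values was not tested.

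The nuclear genes that act on mitochondrial transcripts gave no single direction across the treatments. Over all genes tested, 18.7% were higher and 16.3% lower with namoline, 19.9% and 16.7% with TCE-5002, and for the combination 24.8% and 25.6% in C4-2 and 28.0% and 28.2% in the libraries labelled LNCaP. Of 17 genes for mitochondrial DNA replication and transcription, namoline raised 6 and lowered 0 at an adjusted p under 0.05 (median 0.22), TCE-5002 raised 3 and lowered 1 (0.14), and the combination raised 4 and lowered 2 in C4-2 (-0.05) and raised 8 and lowered 4 in the libraries labelled LNCaP (0.27). With 1 library left out in turn, the 6 raised by namoline became 2 to 4, and without LNCaP combination replicate 1 the last counts were 9 and 4. The largest called rise and fall of each comparison, where any was called, were those of the helicase gene TWNK with namoline (0.72), TOP1MT (0.78) and MTERF4 (-0.38) with TCE-5002, MTERF3 (0.61) and MTERF4 (-0.65) with the C4-2 combination, and POLG2 (1.08) and TWNK (-0.81) with the LNCaP combination. Of 24 genes for processing and decay of mitochondrial RNA, 13 rose and 1 fell with namoline (median 0.35), 7 rose and 1 fell with TCE-5002 (0.21), 5 rose and 5 fell with the C4-2 combination (-0.08) and 11 rose and 8 fell with the LNCaP combination (0.05), or 11 and 7 without its replicate 1. With 1 library left out in turn, the 13 that rose with namoline became 7 to 9 and the 7 with TCE-5002 became 4 to 12. By the same rule, MRM1, which modifies mitochondrial rRNA, rose by 1.23 and REXO2 fell by 0.56 with namoline, TBRG4 rose by 1.04 and FASTKD5 fell by 0.39 with TCE-5002, SUPV3L1 rose by 0.99 and FASTKD3 fell by 1.10 with the C4-2 combination, and REXO2 rose by 1.16 and MRM3 fell by 1.28 with the LNCaP combination. Among 10 regulators of mitochondrial biogenesis, PPARGC1A, a coactivator, changed by -1.71 with TCE-5002, -2.48 with the C4-2 combination and 0.82 with the LNCaP combination. By the same rule, NRF1 changed by -1.497 and PPARGC1B by 1.19 with namoline, ESRRA rose by 0.92 with TCE-5002, PPRC1 rose by 1.19 with the C4-2 combination and ESRRG fell by 1.08 with the LNCaP combination.

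The nuclear subunits of the same complexes did not move with the mitochondrial ones in every comparison. Of the 74 nuclear genes of complexes I, III, IV and V, TCE-5002 raised 62 and lowered 0 (median log2 fold change 0.61), while the 13 mitochondrial genes had a median of -0.19. Namoline raised 20 and lowered 1 (median 0.22), against 0.57 for the mitochondrial genes. The C4-2 combination raised 5 and lowered 31 (-0.25, against -0.12), and the LNCaP combination raised 38 and lowered 10 (0.29, against -0.30), or 41 and 8 without its replicate 1. These counts stand beside 18.7% higher and 16.3% lower over all genes tested with namoline, 19.9% and 16.7% with TCE-5002, and for the combination 24.8% and 25.6% in C4-2 and 28.0% and 28.2% in the libraries labelled LNCaP. With 1 library left out in turn, TCE-5002 raised 42 to 66 of the 74, namoline raised 7 to 11 and the C4-2 combination lowered 12 to 24, with the fewest without C4-2 R1881 replicate 2, without namoline replicate 1 and without C4-2 R1881 replicate 1. Mitochondrial counts per nuclear subunit count were 3.73 and 4.80 in C4-2 R1881, 4.62 and 5.99 with namoline, 2.34 and 2.62 with TCE-5002 and 5.05 and 5.69 with the combination, so the TCE-5002 libraries lay below all other C4-2 libraries. In the libraries labelled LNCaP this ratio was 2.98 and 2.21 with R1881 and 1.92 and 1.78 with the combination. It separated most for complex III, with MT-CYB at 1.82 and 1.40 counts per nuclear count with R1881 and at 0.616 and 0.544 with the combination. For complex IV it overlapped, at 5.40 and 4.01 against 5.23 and 4.72.

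Within each complex, complex II included, the largest called rise and fall, where any was called, were ATP5MC1 (1.56), COX6B1 (1.47), NDUFS7 (1.34), UQCR10 (1.08) and SDHA (1.07) with TCE-5002. With namoline they were ATP5MC1 (1.27), COX6B1 (1.01), SDHA (0.84), UQCRC2 (0.64), NDUFS7 (0.54) and NDUFC1 (-0.43). With the C4-2 combination they were NDUFV2 (1.72), SDHB (0.55), NDUFB1 (-0.88), ATP5MF (-0.81), UQCRQ (-0.80), COX7B (-0.61) and SDHC (-0.47). With the LNCaP combination they were NDUFS4 (1.35), SDHB (1.10), COX6B1 (1.01), ATP5PO (0.85), UQCRC2 (0.75), ATP5F1D (-0.97), UQCRFS1 (-0.84), NDUFS7 (-0.83) and COX8A (-0.43). Of the 80 mitochondrial ribosomal protein genes, which partner the 2 rRNAs, namoline raised 29 and lowered 2, TCE-5002 raised 34 and lowered 2, and the combination raised 25 and lowered 16 in C4-2 and raised 31 and lowered 26 in the libraries labelled LNCaP, or 33 and 25 without combination replicate 1. Over all genes tested, 18.7% were higher and 16.3% lower with namoline, and 19.9% and 16.7% with TCE-5002. For the combination these shares were 24.8% and 25.6% in C4-2 and 28.0% and 28.2% in the libraries labelled LNCaP. With 1 library left out in turn, namoline raised 17 to 19, TCE-5002 raised 19 to 51, and the C4-2 combination raised 17 to 20 and lowered 7 to 12. The largest called rise and fall in the large and in the small subunit, where any was called, were MRPS12 (1.11), MRPL36 (1.01) and MRPL54 (-0.54) with namoline, MRPL34 (1.11), MRPS12 (0.93), MRPS6 (-0.51) and MRPL1 (-0.42) with TCE-5002, MRPL38 (1.37), MRPS30 (1.03), MRPL23 (-0.77) and MRPS25 (-0.72) with the C4-2 combination, and MRPL1 (1.40), MRPS9 (1.28), MRPS2 (-1.54) and MRPL49 (-1.04) with the LNCaP combination.

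**Figure D5:**
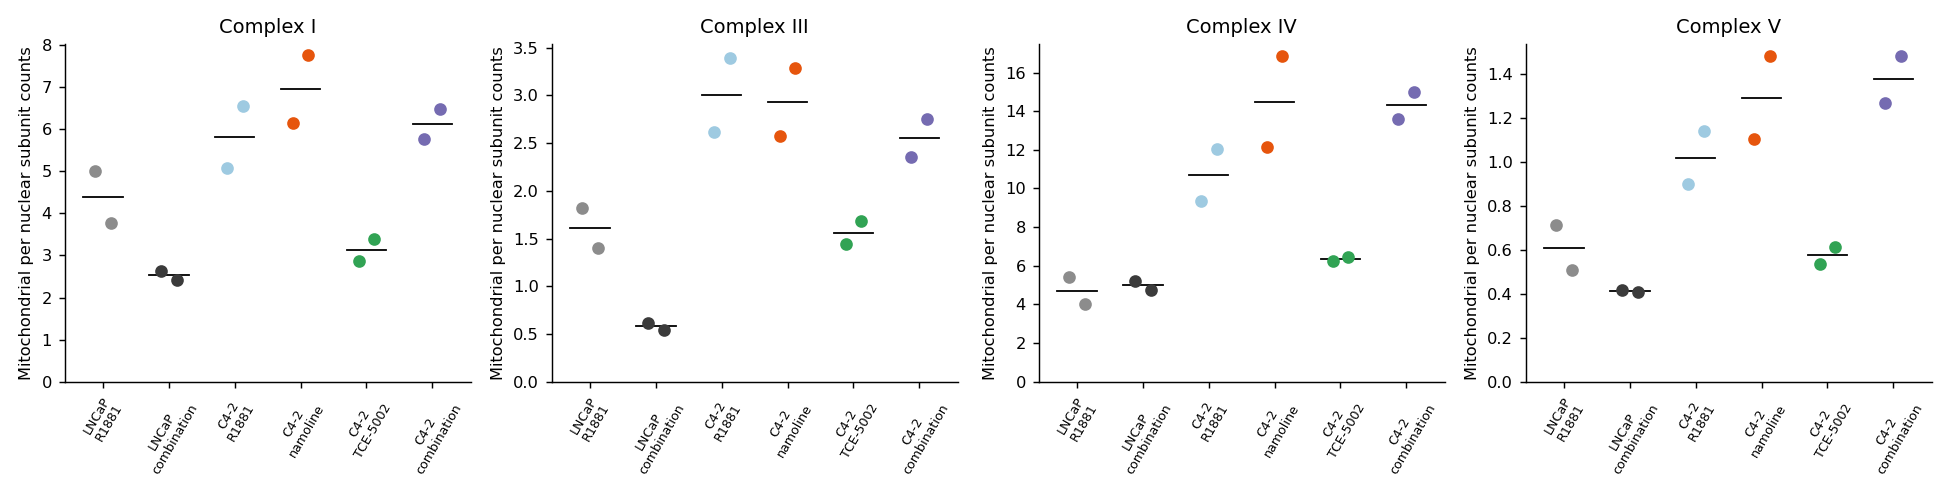
Counts of the mitochondrial subunits per count of the nuclear subunits of complexes I, III, IV and V, by group, with points for libraries and lines for means of 2. In C4-2 the TCE-5002 libraries are lowest in all 4 panels, and for complexes I, III and V the LNCaP combination is lowest of all groups.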

How the data were processed

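RNA of 12 libraries labelled LNCaP or C4-2 was captured by poly(A), sequenced in paired ends, quality-filtered, trimmed with Trim Galore and aligned to GRCh38 with STAR by the authors. The deposited files hold, per the file headers, raw fragment counts for each gene from featureCounts 1.5.0-p1 with the Ensembl release 83 annotation, 1 library per file, without strand, multi-mapping or multi-overlap options. Groups follow the library titles, because the treatment field of the labels describes siRNA work. Symbols matched 57055 of 60675 genes. Mitochondrial coordinates are those of the counting annotation. The sequences shown come from GENCODE release 29, and their tRNA lengths and gene overlaps were checked against those coordinates.

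From these counts, CPM and shares of the library total were computed here. Genes were kept by filterByExpr, scaled by TMM and tested in edgeR 4.0.16 (R 4.3.3) by the quasi-likelihood method, and p-values were adjusted over every gene tested by Benjamini-Hochberg. Calls needed an adjusted p under 0.05, and, where stated, also a 2-fold change as in the study. C4-2 contrasts used all 8 C4-2 libraries, the LNCaP contrast 4, and contrasts between lines the 8 libraries with R1881 alone or the combination. Standard errors were taken as the absolute log2 change divided by the root of the F statistic. With 2 libraries a group, the spread of a gene rests mainly on that shared across genes, and counts vary beyond the counting error of the depth given.

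All coding and rRNA genes were named, the tRNAs that passed the filter, and from each list the largest rise and fall past 2-fold, or else past the adjusted p (the 2 marker lists are given by their sums). Members and gene lists were chosen with earlier results of these data known. The steps were tested on simulated data. Alternatives were RLE scaling, library totals, scaling over nuclear genes, no filter, the likelihood ratio test, DESeq2 1.42.0, a replicate block, only the 4 libraries compared, each library left out, other denominators of the share and, added after seeing the data, a GC correction.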

Additional observations from a re-analysis of the deposited data

Results flagged for a closer look

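Several mitochondrial genes responded differently to the combination in the 2 lines by a test of the difference itself (effect in C4-2 minus effect in LNCaP, log2 scale). The difference was 0.83 for MT-CYB, 0.59 for MT-ND4, 0.53 for MT-ND2, 0.52 for MT-ND3 and 0.41 for MT-ND4L, and -0.67 for MT-RNR2 and -0.66 for MT-CO2. Among the tRNA genes it was 4.72 for MT-TM, 2.95 for MT-TV, -2.09 for MT-TS2, -1.28 for MT-TL1, -0.69 for MT-TC and -0.68 for MT-TP. The values of MT-TM and MT-TV are descriptions, because both passed the filter in the LNCaP fit through R1881 alone. The same holds for MT-TS2 or any other tRNA listed here if it passed the fit of both lines through C4-2 libraries alone. With some library left out, the calls of MT-ND2, MT-ND3, MT-ND4L, MT-TM, MT-TS2 and MT-TC were lost. The differences then ran from 0.40 to 0.78 for MT-ND2, 0.35 to 0.83 for MT-ND3 and 0.25 to 0.74 for MT-ND4L. For the tRNAs they ran from 3.71 to 5.59 for MT-TM, -2.58 to -1.48 for MT-TS2 and -0.83 to -0.38 for MT-TC. Under another setting of edgeR or DESeq2 the adjusted p reached 0.203 for MT-ND4L, 0.104 for MT-TS2, 0.121 for MT-TC and 0.0547 for MT-TP. MT-TK, with 0 counts in the LNCaP combination, is left out because a fitted difference has no bound there.

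The effect of 1 inhibitor in C4-2 differed with the other present, by the test of the interaction, for MT-CO2 (-0.85), MT-CO3 (-0.77), MT-ND6 (-0.58), MT-CYB (-0.51), MT-TC (-1.07) and MT-TP (-1.60). With some library left out, the calls of MT-ND6, MT-CYB and MT-TC were lost. The interaction then ran from -0.72 to -0.41 for MT-ND6, -0.69 to -0.36 for MT-CYB and -1.46 to -0.53 for MT-TC. Under another setting of edgeR or DESeq2 the adjusted p reached 0.0554 for MT-ND6 and 0.0960 for MT-CYB. A negative value means that the combination lay below the sum of the separate effects on the log2 scale.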

How the results depend on the processing

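With library totals in place of TMM scaling, genes that were not called changed sign: MT-ND2 (-0.060) and MT-ND3 (-0.042) with namoline, MT-CO1 (-0.088), MT-CO2 (-0.012) and MT-ND6 (-0.083) with TCE-5002, MT-ND6 (-0.13) with the C4-2 combination, and MT-ND1 (0.020) and MT-ND4 (0.013) in the interaction. With the C4-2 combination MT-ATP6 became 0.0035 with DESeq2 or RLE scaling and 0.033 with the GC correction, and MT-ND5 became 0.029 with DESeq2 or RLE scaling, 0.065 with the GC correction, 0.0060 without the filter, 0.0012 with the block and 0.0017 with nuclear scaling. The GC correction gave -0.068 for MT-RNR2 and -0.017 for MT-ND5 in the interaction and 0.066 for MT-CO1 in the difference between lines. In that difference MT-CO3 became 0.061 with DESeq2 or RLE scaling, 0.19 with the GC correction, 0.041 with library totals, 0.0048 without the filter, 0.0012 with the block and 0.10 with nuclear scaling. The cause was not tested.

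The 2 calls among the 15 coding and rRNA genes with the C4-2 combination became 4 with DESeq2, the GC correction or the likelihood ratio test, 6 without the filter or with the block, 7 with library totals and 9 in a fit of the 4 libraries compared. The 4 of the interaction became 7 with the GC correction and 2 with library totals. Libraries with the same replicate number deviated together in 5 of 6 pairs of C4-2 groups (correlation 0.13 to 0.37), but not for namoline with the combination (-0.02), and at 0.07 in the libraries labelled LNCaP. The labels name no shared batch, so the libraries were treated as unpaired. With a replicate block 7 in place of 11 genes were called in the LNCaP comparison.

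With 1 library left out in turn, calls over all genes ranged from 3270.0 to 4342 with namoline and from 3395 to 7843 with TCE-5002. Calls among the 15 ranged from 1 to 12 with namoline, 2 to 7 with TCE-5002, 1 to 3 with the C4-2 combination, 2 to 5 in the interaction, 7 to 13 in the LNCaP comparison and 4 to 11 in the difference between lines, against 15 throughout between the lines with R1881. Genes not called changed sign in these ranges: MT-ND2 -0.059 to 0.24 and MT-ND3 -0.043 to 0.22 with namoline. With TCE-5002 they were MT-CO1 -0.12 to 0.16, MT-CO2 -0.022 to 0.21, MT-CO3 -0.23 to 0.0094, MT-ND3 -0.16 to 0.35, MT-ND6 -0.17 to 0.17 and MT-CYB -0.31 to 0.0059. With the C4-2 combination they were MT-ATP8 -0.31 to 0.065, MT-ATP6 -0.17 to 0.11, MT-ND5 -0.11 to 0.11 and MT-ND6 -0.10 to 0.12. In the interaction they were MT-RNR2 -0.084 to 0.12, MT-ND1 -0.26 to 0.071, MT-ND4 -0.29 to 0.041 and MT-ND5 -0.12 to 0.11. In the LNCaP comparison they were MT-RNR1 -0.20 to 0.013, MT-ATP8 -0.41 to 0.082 and MT-ND5 -0.33 to 0.031, and in the difference between lines MT-CO1 -0.27 to 0.12, MT-ATP8 -0.19 to 0.34, MT-CO3 -0.11 to 0.27 and MT-ND5 -0.0090 to 0.38. The log2 ratio of the coding share ranged from -0.394 to -0.125 with TCE-5002, -0.163 to 0.106 with the C4-2 combination and -0.510 to -0.124 with the LNCaP combination, and that of the rRNA share from -0.546 to -0.377 with TCE-5002 and 0.509 to 0.722 with the LNCaP combination.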
